A study of Homo sapiens with 8 samples.

Results

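Zinc-finger genes named ZNF with a number encode the largest family of human transcription factors, and the copies outside chromosome 19 were followed here through 8 libraries of nascent RNA. The members were all genes in the count tables whose symbol is ZNF followed by digits only and that lie on an autosome other than 19. This gave 197 genes of 19351, each counted over the transcript with the largest span, and the rule used no measured value. The assay was GRO-seq, a nuclear run-on which lets polymerases already on the DNA lengthen their RNA in isolated nuclei, so the reads cover introns as well as exons. The cells were MRC5 human fetal lung fibroblasts, an SV40-immortalized line called MRC5_VA in the study's methods. They were wild type (WT) or carried, by their label, a lower level (KD, for knockdown) of the noncoding RNA *ZFAS1*, aimed at with a lentiviral short hairpin. All cells were first kept in 100 µM DRB, a drug that holds RNA polymerase II near gene starts, for 3.5 h. The medium with DRB was then taken off, and the cells were left without UV or received 10 J/m2 of UV-C. They were washed and given medium free of DRB. At 10 or 40 min after DRB removal the nuclei ran on with Br-UTP for 5 min. There was 1 library for each of the 8 combinations of cell, UV and time, and nothing in the labels shows separate cultures, so every p-value measures only the spread between these libraries.

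Nascent reads of the hairpin's target *ZFAS1* were not lower under the KD label, except at 40 min without UV. The paper measured the knockdown by RT-PCR, which showed less *ZFAS1* in its depleted cells. The level of finished RNA was not measured here. At 10 min without UV *ZFAS1* stood at 507 CPM (counts per M reads after TMM scaling) for WT and 712 CPM for KD. At 40 min these were 1789 and 1596 CPM. With UV they were 635 against 694 CPM at 10 min, and 586 against 922 CPM later. The fitted KD effect on it was a log2 fold change of 0.21 ± 0.35 (SE; edgeR adjusted p = 1.0), so below KD means only the libraries labelled KD. Totals ran from 10.2 to 21.1 M reads, the largest in WT without UV at 40 min. The 12 fibroblast markers summed to between 1622 and 5604 CPM in every library, and the 5 epithelial markers to at most 66.3 CPM. The 5 endothelial markers summed to 79.8 to 418 CPM. Single fibroblast markers were unlike, from 0.026 to 36.7 reads per kb per M in WT without UV at 40 min, so few genes may carry the sum.

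Most ZNF proteins bind DNA through rows of C2H2 zinc fingers, and many carry a KRAB domain that recruits TRIM28, the histone methyltransferase SETDB1 and HP1 proteins to silence DNA, transposable elements above all. Others carry a SCAN domain for pairing with each other, act as activators, or bind RNA. The genes arose by tandem duplication, which left them in clusters. After DRB is removed, a wave of polymerases leaves the promoters together, so a gene of intermediate length is filled with reads only after some time, while UV lesions on the template strand stop polymerases on the way.

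The promoter of *ZNF322*, the only member called for time over all 8 libraries, and those of *ZNF184* and *ZNF668*, with the largest rise without UV and the largest KD by UV term, are shown from RefSeq (GRCh38.p14) with 250 bases before and 50 after the start. They lie at chr6:26659697-26659996, chr6:27473056-27473355 and chr16:31074191-31074490, all on the minus strand, and are written 5′ to 3′ on that strand. Capitals mark a match to the motif of NRF1 in *ZNF322* and to the ETS motif CCGGAAGT in the others, on either strand; the NRF1 pattern has 10 letters with 1 of them free.
ZNF322: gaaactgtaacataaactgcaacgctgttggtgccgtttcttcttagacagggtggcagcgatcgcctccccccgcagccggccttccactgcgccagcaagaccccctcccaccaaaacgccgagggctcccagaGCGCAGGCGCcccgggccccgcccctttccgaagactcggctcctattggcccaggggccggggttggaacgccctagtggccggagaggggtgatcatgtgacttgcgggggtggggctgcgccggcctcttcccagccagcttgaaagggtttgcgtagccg
ZNF184: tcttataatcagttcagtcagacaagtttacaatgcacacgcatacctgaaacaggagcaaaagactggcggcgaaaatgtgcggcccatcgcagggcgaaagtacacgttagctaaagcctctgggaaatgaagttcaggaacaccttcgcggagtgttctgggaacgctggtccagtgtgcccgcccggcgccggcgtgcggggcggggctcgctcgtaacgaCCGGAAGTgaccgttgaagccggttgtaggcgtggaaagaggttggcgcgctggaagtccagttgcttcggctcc
ZNF668: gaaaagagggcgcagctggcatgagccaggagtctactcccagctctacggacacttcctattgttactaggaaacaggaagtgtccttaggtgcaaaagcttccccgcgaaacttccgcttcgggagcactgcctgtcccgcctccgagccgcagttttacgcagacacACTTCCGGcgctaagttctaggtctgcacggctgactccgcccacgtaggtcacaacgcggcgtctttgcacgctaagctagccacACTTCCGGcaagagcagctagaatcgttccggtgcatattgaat
Of the 197 members, 162 had a RefSeq promoter. The NRF1 motif was found in 21 of these, or 13.0%, beside 6.28% of all 27305 RefSeq promoters of the same length, and the ETS motif in 25, or 15.4%, beside 4.44%. TATAAA, the TATA box, was rarer at 4.32% against 12%, and CCAAT was found in 45.1% against 35.7%. Promoters of ZNF genes on chromosome 19 held these 4 patterns in 13.7, 19.7, 2.19 and 53.0%, so the shares are not particular to the members. The median GC content was 62.7% in member promoters, 60% in those on chromosome 19 and 58.3% in all. A match describes letters in a window and is not a site of binding.

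The motif of ZNF143, itself a member and an activator of many promoters, was searched on both strands as a pattern of 12 letters with 2 of them free. It was found in 11 of the 162 promoters, or 6.79%, in 15.8% of the 183 promoters of ZNF genes on chromosome 19, and in 1.96% of all promoters. Of the 11, 4 belonged to the 6 genes of a single cluster on chromosome 12. They are printed with the motif in capitals as the match reads on the gene's own strand, because they are neighbours with a shared element and unlike behaviour in time.
ZNF605: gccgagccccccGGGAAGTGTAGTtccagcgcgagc
ZNF26: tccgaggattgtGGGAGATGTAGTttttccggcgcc
ZNF140: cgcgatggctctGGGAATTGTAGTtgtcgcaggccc
ZNF268: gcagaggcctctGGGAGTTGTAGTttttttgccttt
These windows of 36 bases lie at chr12:132956322-132956357 on the minus strand and at chr12:132986284-132986319, chr12:133080676-133080711 and chr12:133181430-133181465 on the plus strand. *ZNF605* and *ZNF140* each held a further copy. *ZNF26* went from 15 CPM at 10 min to 62.9 CPM at 40 min in WT without UV and from 13.6 to 47.8 CPM for KD, and with UV from 13.8 to 20.1 CPM for WT and from 17.7 to 36.5 CPM for KD. Its neighbour *ZNF605* stood between 4.78 and 6.85 CPM in all 8 libraries, *ZNF268* between 5.69 and 7.70 CPM, and *ZNF140* between 7.20 and 15.3 CPM. So *ZNF26* was higher at 40 min in all 4 pairs, while the 10 and 40 min values of the other 3 overlapped. Across the members, the median fitted log2 change with time was 0.23 for the 11 with this motif and 0.55 for the other 150 tested, and for CCAAT 0.73 for the 72 with it and 0.38 for the 89 without it.

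The members lay on 19 autosomes, with 29 on chromosome 16, 25 on chromosome 7 and 18 on chromosome 1, and 196 of the transcripts were found in GENCODE v44 (hg38). Runs of at least 4 members with gaps under 250 kb formed 9 clusters, of 4 to 9 genes. The counted spans ran from 2.56 kb in *ZNF768* to 434.6 kb in *ZNF407* with a median of 20.3 kb, beside 20.4 kb for ZNF genes on chromosome 19 and 27.4 kb for all genes tested. Another counted gene on the same strand covered over 10% of 1 member, *ZNF721*, and 16 had over 10% of their span in a gene on the other strand. Among the 16 are *ZNF654*, *ZNF484* and *ZNF750* (100% each), *ZNF22* (70.5%), *ZNF451* (69%) and *ZNF397* (61.6%), which are named below. Whether the counting used strand is not stated in the sources at hand, so reads of these neighbours cannot be told apart. In the fuller GENCODE v44 annotation 28 members share over 10% of their span with another gene on the same strand and 52 with one on the other strand. The former include *ZNF670*, *ZNF605*, *ZNF268*, *ZNF10*, *ZNF207*, *ZNF174*, *ZNF655*, *ZNF365*, *ZNF747* and *ZNF775*, whose reads cannot be told from those of the overlapping gene.

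The family was transcribed at a low level. Members took 0.547 to 0.731% of the reads of a library, and the median member had 100 to 334 reads. Per length, the median lay between 0.376 and 0.808 reads per kb per M, lowest in WT with UV at 10 min and highest in WT without UV at 40 min. The highest mean density was that of *ZNF777*, a KRAB gene of a cluster on the long arm of chromosome 7, at 10.3 reads per kb per M, followed by *ZNF688* at 9.24, *ZNF281*, a regulator of pluripotency and mesenchymal genes, at 7.52, and *ZNF655* at 6.31. *ZNF195*, the spindle protein gene *ZNF207*, *ZNF217*, *ZNF479*, *ZNF22* and *ZNF92* followed at 3.54 to 4.44.

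A floor for silent genes was taken from 15 markers of endothelium, immune cells and muscle, since only 1 olfactory receptor gene was in the tables. Their median density was 0.144 reads per kb per M in WT without UV at 40 min and 0.260 to 0.482 in the other 7 libraries. Against this floor the member median was 5.59 times as high in WT without UV at 40 min, 2.65 and 2.60 times in KD at 40 min without and with UV, and 1.00 to 1.36 times in the remaining 5. Over 2 times the floor in all 8 libraries stood 43 members, 39 were over it in none, and 115 in some. How far reads at silent loci enter each member's count was not tested.

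The question of time is how far the released polymerases filled the genes between 10 and 40 min. In both the libraries without UV and those with UV, more members rose than fell. Each state was fitted on its own 4 libraries with cell as a covariate, which leaves 1 residual degree of freedom and borrows the spread across genes. Without UV 60 members of 195 tested rose and 11 fell, where 14.2% of all 17840 genes rose and 12.5% fell. With UV 59 rose and 8 fell, where 11.6% of all genes rose and 8.27% fell. The share of members that rose was thus 30.8% and 30.3%. The libraries of both fits are separate, and 41 members rose in both, which is 68.3% of those that rose without UV and 69.5% of those that rose with UV. Over all genes the shared risers were 44.5% and 54.7%. Of the fallers 2 were shared, *ZNF467* and *ZNF646*, and no member was called in opposite directions. The number of fallers without UV depended on the scaling: with RLE factors 75 rose and 22 fell, where 21.2% and 18.8% of all genes did, and with library totals 61 rose and 32 fell, where 15.8% and 34.4% did. With DESeq2 in place of edgeR 66 rose and 14 fell without UV, where 18.7% and 12.8% of all genes did. With UV 19 rose and 2 fell by DESeq2, where 4.0% and 1.84% of all genes did.

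**Figure D1:**
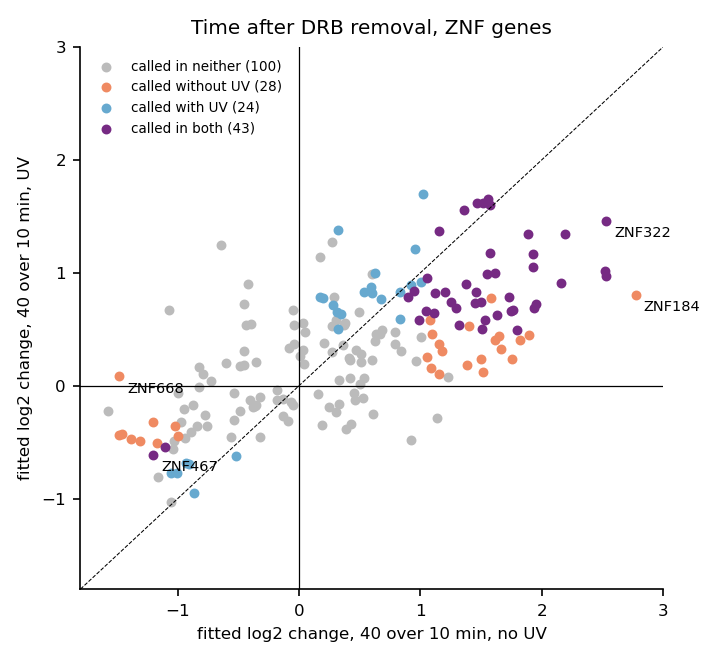
Fitted log2 change from 10 to 40 min for the 195 members tested, without UV on the horizontal axis and with UV on the vertical axis, each from 4 libraries, with colours for calls at an adjusted p under 0.05 and a dashed line of equal change. The 43 genes called in both sit at the upper right except *ZNF467* and *ZNF646*, and most risers lie below the dashed line.

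Over all 8 libraries at once, with UV and cell as additive terms, 1 member rose and none fell, where 0.146% of all genes (26) rose and 0.0% fell. This was *ZNF322*, a gene on chromosome 6. It stood at 3.79 CPM at 10 min and 24.5 CPM at 40 min in WT without UV, at 4.14 and 21.6 CPM for KD without UV, at 3.37 and 8.96 CPM for WT with UV and at 4.58 and 15.1 CPM for KD with UV. Every 40 min library was above every 10 min library, and the smallest of the 40 min values was that of WT with UV. The log2 fold change was 2.07 ± 0.36 (SE; edgeR adjusted p = 0.0461). Another 7 members lay at an adjusted p under 0.055, and 73 had an unadjusted p under 0.05, where 21.9% of all genes did. The count of calls in this fit went from 0 under library totals or limma-voom to 49 with DESeq2, and without 5 of the 8 libraries, each left out in turn, it was 0.

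Further members changed by as much as *ZNF322* in the separate fits. *ZNF184* rose from 2.63 to 19.7 CPM for WT and from 1.87 to 11.7 CPM for KD without UV (log2 fold change 2.77 ± 0.42, edgeR adjusted p = 0.000568). With UV it went from 2.92 to 3.99 CPM for WT and from 3.31 to 8.23 CPM for KD, which did not pass (0.81 ± 0.30, edgeR adjusted p = 0.0731). The 40 min values with UV thus lay below both 40 min values without UV. *ZNF346*, a protein that binds double-stranded RNA, rose from 12.6 to 77.2 CPM for WT and from 9.41 to 51.2 CPM for KD without UV, and from 11 to 23.8 CPM and 13.7 to 28.3 CPM with UV. *ZNF670*, in the cluster at the end of chromosome 1, rose from 12.6 to 69.3 CPM and 9.49 to 57.0 CPM without UV, and from 6.82 to 15 CPM and 10.9 to 23.8 CPM with UV. For both genes the fitted log2 change was close to 2.5 without UV (2.53 ± 0.34 and 2.52 ± 0.34) and to 1 with UV (0.97 ± 0.18 and 1.02 ± 0.20). In GENCODE v44 *ZNF670* lies within a read-through gene with *ZNF695*.

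Among the 41 shared risers the log2 change ran from 0.90 to 2.53 without UV, with a median of 1.53, and from 0.50 to 1.66 with UV, with a median of 0.83. It was larger without UV in 35 of the 41. These genes were picked by their calls in both fits, and the smallest change among them was itself larger without UV. So the count of 35 partly reflects the picking. Over all 195 members tested the medians were closer, 0.42 without UV and 0.36 with UV. The test of that difference, the UV by time term, called no member and 0.0% of all genes in either direction, with 4 members and 2.72% of all genes (486) at an unadjusted p under 0.05. The members with the smallest p below 0 were *ZNF346* (-1.47 ± 0.58), *ZNF184* (-1.83 ± 0.77) and *ZNF670* (-1.38 ± 0.62), and above 0 *ZNF408* (1.84 ± 0.65), *ZNF396* and *ZNF669*, all at an adjusted p of 0.956. So the smaller change with UV did not pass in this design, nor with DESeq2 or limma-voom. Of the 41, 5 stood over 2 times the silent floor in all 8 libraries and 13 in each 40 min library.

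Of the 6 genes tested on the list for RNA and ribosome functions, 4 rose without UV and 4 with UV, and none fell, beside the 14.2% and 11.6% of all genes and the 30.8% and 30.3% of members that rose. *ZNF207*, which is also known as a microtubule-binding protein of the spindle checkpoint, went from 114 to 231 CPM for WT and 65.7 to 201 CPM for KD without UV, and *ZNF326*, a subunit of a complex that links splicing to elongation, from 45.7 to 120 CPM and 35.1 to 112 CPM. Both also rose with UV, by a log2 of 0.54 ± 0.16 and 0.58 ± 0.16. *ZNF638* rose without UV (1.5 ± 0.33) and *ZNF622*, a factor of ribosome maturation, with UV (1.38 ± 0.19), while *ZNF598*, the ligase that marks collided ribosomes, passed in neither (0.42 ± 0.34 and 0.23 ± 0.19). ZNF593 was not analysed here.

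The 16 SCAN-domain genes included 4 that rose without UV and 8 that rose with UV, with none that fell. These are 25% and 50% of the list, beside 14.2% and 11.6% of all genes and 30.8% and 30.3% of members. *ZNF202*, a repressor of lipid genes, stood at 3.06 to 5.06 CPM in the 10 min libraries and at 9.18 to 16.6 CPM in the 40 min libraries, which do not overlap, and its log2 change was 1.58 ± 0.38 without UV and 1.60 ± 0.28 with UV. *ZNF24* and *ZNF397* rose in both as well, by a log2 of 0.90 and 1.58 when unirradiated and of 0.79 and 1.17 after UV, as did *ZNF18*. The median over the list was 0.60 without UV and 0.75 with UV, against -0.31 and -0.02 over all genes tested.

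In the other lists, of 14, 3 and 4 genes tested, at most 1 gene was called in each direction in either fit. Of 14 transcription regulators known by function, *ZNF148* rose and *ZNF219* fell without UV, and *ZNF281* rose and *ZNF76*, a relative of *ZNF143*, fell with UV. Each is 7.14% of that list. Of all genes 14.2% rose and 12.5% fell without UV, and 11.6% rose and 8.27% fell with UV. *ZNF143* itself stood at 51.1 to 62.5 CPM in 7 libraries and at 95.2 CPM for KD with UV at 40 min, and passed in neither fit (-0.08 ± 0.32 and 0.33 ± 0.17). *ZNF532*, which with *ZNF592* and *ZNF687* encodes the Z4 partners of ZMYND8, fell without UV from 38.0 to 9.33 CPM for WT and 53.2 to 34.9 CPM for KD (-1.31 ± 0.37, edgeR adjusted p = 0.0178), and its 2 partners had values of -0.76 ± 0.38 and -0.54 ± 0.32. *ZNF451*, a SUMO ligase, rose without UV (1.16 ± 0.40), *ZNF668*, linked to the damage response, fell without UV (-1.48 ± 0.32), and *ZNF365* and *ZNF827* passed in neither fit. Without UV 33.3% of the 3 Z4 genes fell. Of the 4 genes for genome maintenance and SUMO, *ZNF451* among them, 25% rose and 25% fell. Each of these shares is 1 gene, and no gene of both lists was called with UV. ZNF830 was not analysed here.

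The genes that fell form a smaller set of 17 over both fits. *ZNF467*, a regulator of the choice between bone and fat cells, went from 16.6 to 5.03 CPM for WT and 38.4 to 23.3 CPM for KD without UV, and from 29.5 to 20.1 CPM and 18.5 to 13.6 CPM with UV. *ZNF646* went from 24.1 to 9.66 CPM and 41.5 to 22.3 CPM without UV, and from 32.3 to 24.3 CPM and 29.1 to 21.4 CPM with UV. Each was lower at 40 min in all 4 pairs, and the lowest library of both was WT without UV at 40 min, the library with the lowest silent floor. In the same pairs the floor went from 0.482 to 0.144 and 0.330 to 0.260 reads per kb per M without UV (WT, then KD), and from 0.276 to 0.471 and 0.456 to 0.302 with UV. Its part in these values was not tested. In the fit over all libraries the smallest p below 0 belonged to *ZNF831* (-0.78 ± 0.33), *ZNF76* (-0.84 ± 0.37) and *ZNF646* (-0.75 ± 0.33), at edgeR adjusted p of 0.195, 0.206 and 0.216.

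As medians over members, the log2 ratio of 40 over 10 min was 0.50 in WT without UV, 0.42 in KD without UV, 0.29 in WT with UV and 0.65 in KD with UV. Over all genes tested it was -0.45, -0.05, 0.10 and 0.11, and over ZNF genes on chromosome 19 it was 0.60, 0.49, 0.30 and 0.60. The member median thus lay above that of all genes in each pair, by 0.95, 0.48, 0.19 and 0.55. A change of scaling moves all genes of a pair alike: with another TMM reference library the median of all genes in WT without UV went from -0.45 to -0.10 and that of members from 0.50 to 0.86. With the density of the marker genes subtracted the member median of WT with UV turned to -0.24. Higher at 40 min in all 4 pairs were 90 members, or 46.2%, where 27.7% of all genes were, and lower in all 4 were 23, or 11.8%, where 25.5% of all genes were. For the 43 members over the floor in all libraries the 4 medians were 0.17, 0.42, 0.29 and 0.62, beside -0.14, 0.31, 0.34 and 0.34 for the 4247 such genes.

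**Figure D2:**
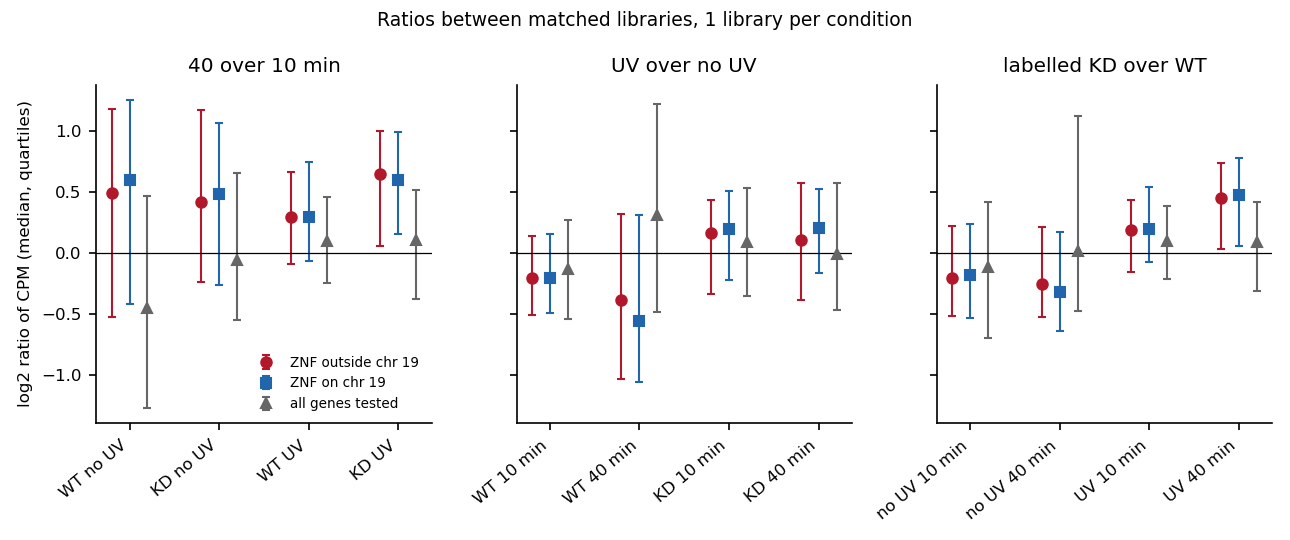
Median log2 ratio of CPM between matched libraries, with bars from the lower to the upper quartile over genes, for members (circles), ZNF genes on chromosome 19 (squares) and all genes tested (triangles). Members lie above all genes in each of the 4 time pairs, the member medians for UV are below 0 in WT and above 0 in KD, and those for KD below 0 without UV and above 0 with UV.

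The change with time differed by counted span. In WT without UV the member median of the log2 ratio of 40 over 10 min was -0.07 in the 41 genes of 1 to 10 kb, 0.71 in the 86 of 10 to 30 kb, 0.73 in the 38 of 30 to 60 kb, 0.67 in the 11 of 60 to 100 kb, 0.24 in the 15 of 100 to 200 kb and -1.43 in the 4 longer ones. All genes in the same bins had medians of -0.69, -0.40, -0.02, 0.00, -0.36 and -1.05. The member median lay above that of all genes in the bins up to 200 kb and below it in the longest. Which of these medians lie above 0 depends on the scaling. With UV in WT the profile was flatter, with 0.31, 0.47, 0.24, 0.18, -0.11 and -0.23.

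In calls, 31 of the 86 members of 10 to 30 kb and 19 of the 38 of 30 to 60 kb rose without UV, but 1 of the 41 under 10 kb. These are 36.0, 50 and 2.44%, beside 13.4, 24.8 and 2.38% of all genes of those spans, so few genes under 10 kb rose in either set. With UV 36 of 86, 15 of 38 and 6 of 41 rose, or 41.9, 39.5 and 14.6%, beside 17.3, 12.9 and 13.2% of all genes. The 5 longest members, *ZNF827*, *ZNF704*, *ZNF521*, *ZNF423* and *ZNF407*, included no riser, and *ZNF704* fell without UV (184 to 70.6 CPM for WT and 66.3 to 43.4 CPM for KD). Of all genes over 200 kb 1.45% rose and 18.1% fell without UV, and 0.0855% rose and 19.7% fell with UV. Few genes of that span rose in either set. *ZNF423*, a regulator of fat cell commitment, and its relative *ZNF521* stood at 49.3 and 19.4 CPM for WT without UV at 40 min and at 120.3 to 199.6 CPM and 41.6 to 69.1 CPM in the other libraries. Across members the Spearman correlation of span with the UV by time value was -0.42, and -0.35 across all genes, as a description over genes that share libraries.

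**Figure D3:**
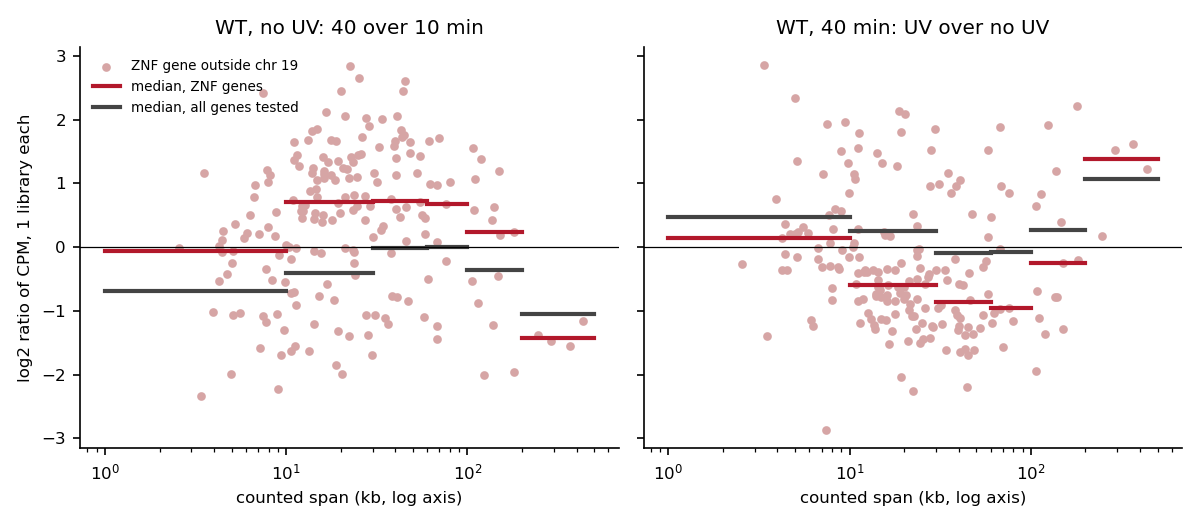
Log2 ratio of CPM against counted span (log axis) for each member, with bars for the median of members and of all genes in 6 span bins, for 40 over 10 min in WT without UV (left) and for UV over no UV in WT at 40 min (right), 1 library each. On the left members of 10 to 100 kb lie mostly above 0 and on the right mostly below it, and the 4 longest members are reversed.

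In 1 of the 9 clusters every gene rose without UV. All 5 genes of the chromosome 7 cluster near the centromere, *ZNF680*, *ZNF107*, *ZNF138*, *ZNF273* and *ZNF117*, rose without UV, with a median log2 change of 1.76, and 3 of them rose with UV, with a median of 0.53. *ZNF273* went from 11.2 to 46.1 CPM for WT and 8.19 to 39.8 CPM for KD without UV, and from 8.06 to 17.2 CPM and 14 to 27.4 CPM with UV. *ZNF117* rose without UV from 8.66 to 22.4 CPM and 4.62 to 20.9 CPM, and with UV stood at 5.85 and 5.34 CPM for WT and 6.20 and 10.6 CPM for KD. The median span of these 5 genes was 39.2 kb. Of all genes of 30 to 60 kb 24.8% rose without UV and 12.9% with UV, beside 14.2% and 11.6% of all genes tested. By contrast none of the 8 tested genes of the chromosome 16 cluster at 30.4 Mb, with a median span of 4.83 kb, rose without UV, 1 of them fell without UV, 1 rose and 1 fell with UV, and the median was -0.11 and 0.35. Of all genes of 1 to 10 kb 2.38% rose and 11.2% fell without UV, and 13.2% rose and 3.97% fell with UV. The clusters thus differ in span, and its part in the contrast was not tested. Clustered genes may be close copies, so reads shared between copies may be split between them or left out.

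Where a shorter transcript shared the start of the longest one, reads could be split into a head and a tail. This was possible in 29 members, and 23 of them had at least 10 reads in each part in all libraries, with a median head of 21.2 kb and a median tail of 15 kb. The density in the tail relative to the head was higher at 40 than at 10 min in 8 of the 23 in WT and 12 in KD without UV, but in 2 in WT and 4 in KD with UV. Over the 1477 genes with such parts the share was 29.99, 35.1, 31.0 and 27.1%. The median differences over members were -0.15, 0.01, -0.55 and -0.46 on the log2 scale, against -0.49, -0.36, -0.27 and -0.31 over all such genes. Members thus stood above all such genes without UV and below them with UV. UV over no UV moved the relative tail density of members by 0.32 in WT and 0.35 in KD at 10 min and by -0.23 and -0.39 at 40 min, beside 0.05, 0.21, 0.27 and 0.20 over all such genes. These ratios were not tested.

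**Figure D4:**
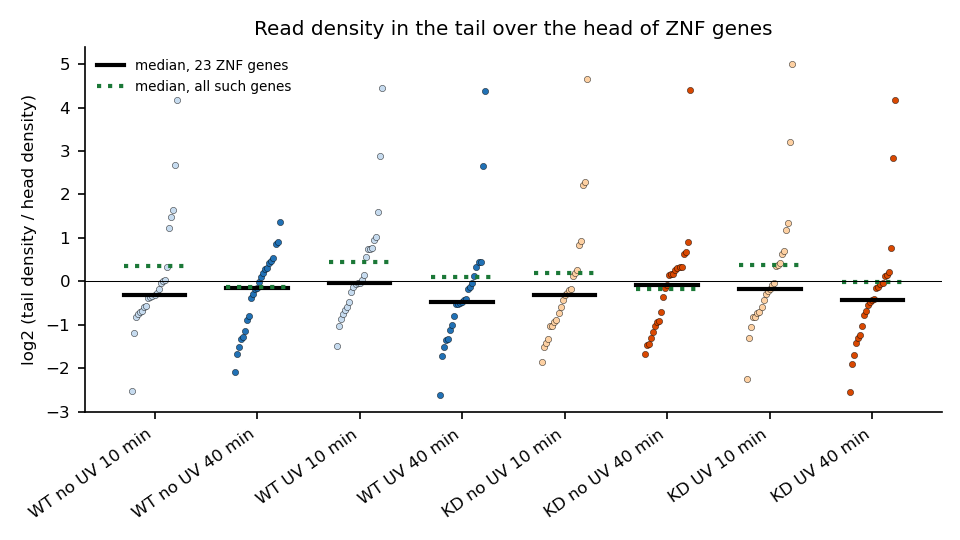
Log2 ratio of read density in the tail over the head for 23 members in each of the 8 libraries (points), with solid bars for their median and dotted bars for the median of all 1477 such genes. The member median is lowest in the 40 min libraries with UV, at -0.48 and -0.42.

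UV-C by itself, fitted over all 8 libraries, called no member and 0.0% of all genes in either direction, with 3 members and 1.7% of all genes (304) at an unadjusted p under 0.05. These were *ZNF670* (-1.06 ± 0.38), *ZNF484* (-0.80 ± 0.34) and *ZNF10* (-0.79 ± 0.37), at an edgeR adjusted p of 0.993. DESeq2 and limma-voom also called no member. *ZNF484* stood at 19.2 and 19.3 CPM without UV at 40 min and at 6.17 and 12.2 CPM with UV, while its 10 min values lay between 3.63 and 5.43 CPM. *ZNF174*, *ZNF609* and *ZNF501* had the smallest p above 0. Fitted within WT no member was called, where 0.32% of all genes rose and 0.0224% fell, and within KD *ZNF22*, *ZNF654* and *ZNF668* rose and *ZNF467* and *ZNF747* fell (3 and 2), where 4.66% rose and 2.42% fell.

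The member medians for UV lay on opposite sides of 0 in WT and KD. For single genes the KD by UV term, given further on, tests this difference, and no test was made of the medians. The log2 ratio of UV over no UV was -0.20 at 10 min and -0.38 at 40 min in WT, but 0.17 and 0.11 in KD. All genes had medians of -0.13 and 0.31 in WT and 0.09 and 0.00 in KD, so of the 4 UV pairs WT at 40 min had the largest gap between members and all genes (-0.69). Scaled by library totals the KD value at 10 min turned to -0.08, and with marker densities subtracted that at 40 min to -0.14. In WT at 40 min members of 30 to 60 and 60 to 100 kb had medians of -0.86 and -0.95, all genes of those spans -0.10 and -0.08, and the 4 longest members 1.37. Higher with UV in all 4 pairs were 6 members (3.08%), where 2.96% of all genes were, and lower in all 4 were 4 (2.05%; *ZNF330*, *ZNF484*, *ZNF746* and *ZNF786*), where 2.02% were, both near the background.

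The medians of KD over WT lay below 0 without UV and above 0 with UV. Fitted over all libraries no member and 0.0% of all genes were called in either direction, and no member had an unadjusted p under 0.05, where 0.471% of all genes did. DESeq2 and limma-voom called none either. The smallest p above 0 were those of *ZNF502* (0.77 ± 0.36), *ZNF750* and *ZNF76* (0.75 ± 0.38), and below 0 those of *ZNF483* (-0.39 ± 0.29), *ZNF692* and *ZNF786*. Higher in KD in all 4 pairs was 1 member, *ZNF484*, where 3.09% of all genes were, and lower in all 4 were 2, *ZNF217* and *ZNF483*, where 1.73% were. Without UV the fit called 14 members higher and 4 lower in KD (*ZNF106*, *ZNF142*, *ZNF668* and *ZNF704*), where 9.57% and 6.33% of all genes were, and with UV 5 higher (*ZNF189*, *ZNF597*, *ZNF622*, *ZNF668* and *ZNF782*) and 1 lower (*ZNF688*), where 0.891% and 1.57% were.

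As medians, KD over WT was -0.21 and -0.25 at 10 and 40 min without UV, and 0.19 and 0.45 with UV. All genes had -0.11, 0.02, 0.10 and 0.09. With marker densities subtracted the value at 10 min with UV turned to -0.06. Below WT at both times without UV, but above it at both with UV, were 86 members, or 44.1%, where 34.1% of all genes were, and the reverse held for 21, or 10.8%, where 22.4% of all genes were.

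The KD by UV term, which asks whether KD over WT differed with UV, called 3 members above 0 and 6 below 0, where 5.04% and 3.95% of all genes were called. The member shares were 1.54% and 3.08%. With RLE factors 22 members were above and 17 below 0 (11.3% and 8.72%, beside 12.4% and 14.5% of all genes), and with another TMM reference library 24 and 16 (12.3% and 8.21%, beside 15.1% and 13.7%). In each of these fits the member shares were below those of all genes. *ZNF668* had the largest value. It stood at 99.0 and 31.9 CPM for WT without UV at 10 and 40 min against 28.4 and 11.4 CPM for KD, and at 17.1 and 24.9 CPM for WT with UV against 61.5 and 57.3 CPM for KD. It was thus lower in KD at both times without UV and higher at both with UV, by a term of 3.12 ± 0.64 (edgeR adjusted p = 0.0420). *ZNF620* and *ZNF142* showed the same order of values. *ZNF142* stood at 10.6 and 25 CPM for WT and 5.35 and 10.7 CPM for KD without UV, and at 6.91 and 13.3 CPM against 9.59 and 18.2 CPM with UV (1.58 ± 0.45, edgeR adjusted p = 0.0475).

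The 6 members below 0 were *ZNF747* (-2.58 ± 0.64), *ZNF688* (-2.30 ± 0.62), *ZNF467* (-2.26 ± 0.50), *ZNF618* (-2.04 ± 0.60), *ZNF775* (-1.79 ± 0.52) and *ZNF76* (-1.71 ± 0.46), at edgeR adjusted p of 0.0420 to 0.0494. *ZNF688* stood at 28.3 and 5.51 CPM for WT and 50.8 and 32.2 CPM for KD without UV, and at 42.0 and 40.7 CPM for WT and 31.0 and 20.0 CPM for KD with UV. *ZNF618* stood at 117 and 30.1 CPM against 174 and 186 CPM without UV, and at 189 and 140 CPM against 148 and 89.8 CPM with UV. In all 6 the lowest library was WT without UV at 40 min. That library also had the lowest silent floor, 0.144 reads per kb per M, and the lowest sum of the 5 endothelial markers, 79.8 CPM. Their part in the result was not tested. Without WT without UV at 40 min 13 members were above and 4 below 0, where 11.3% and 2.63% of all genes were. Without WT without UV at 10 min there were 19 and 25, where 10.1% and 24.1% of all genes were. Leaving out WT with UV at 10 min gave 5 and 11, beside 3.11% and 9.41% of all genes. Leaving out WT with UV at 40 min gave 2 and 5, beside 5.69% and 2.93%. With any one KD library left out at most 1 member was called, and at most 0.146% of all genes in either direction.

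**Figure D5:**
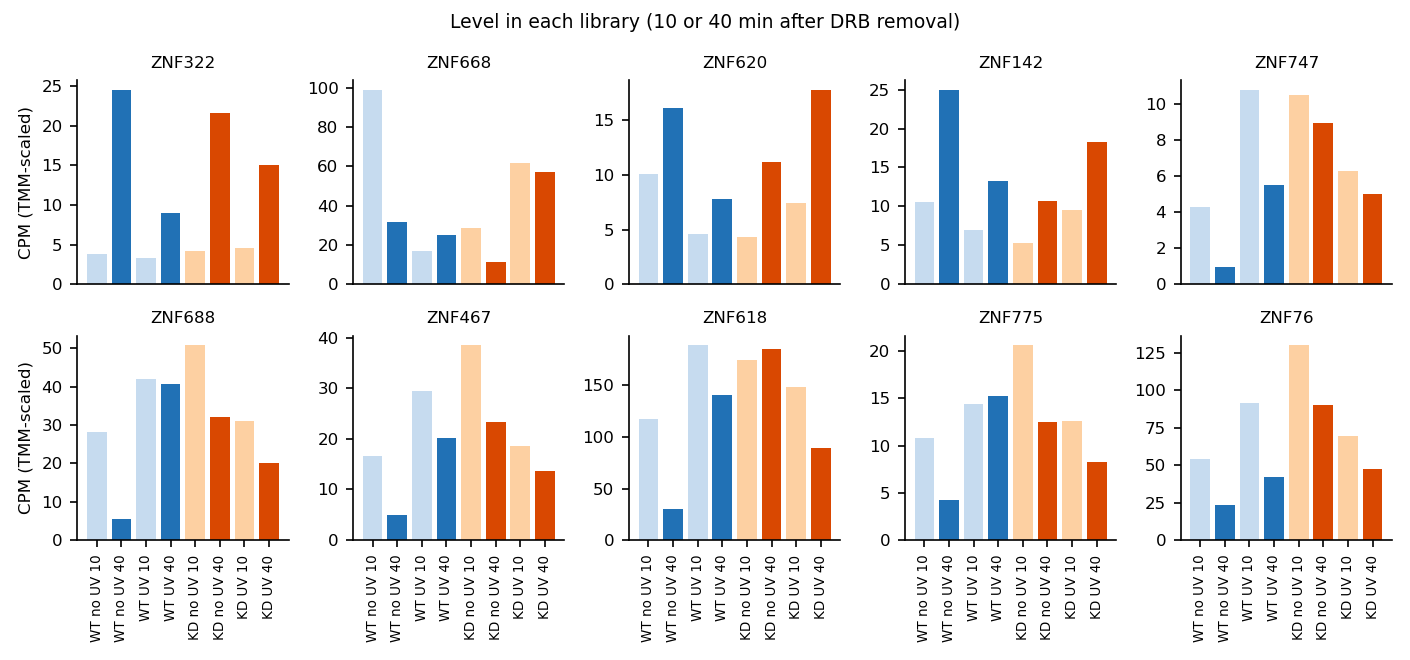
CPM in each of the 8 libraries, 1 bar a library and no error bar since no condition was repeated, for *ZNF322* and the 9 members called for the KD by UV term (blue for WT, orange for KD, pale for 10 min and dark for 40 min, axes from 0). *ZNF322* is high in the dark bars, *ZNF668* is highest in WT without UV at 10 min and next in the KD libraries with UV, and the 6 genes from *ZNF747* on are lowest in WT without UV at 40 min.

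The partners through which KRAB proteins repress were taken as a list of 24 genes. Of these 6 rose with time without UV and 4 with UV (25% and 16.7%, beside 14.2% and 11.6% of all genes), and none fell. *MORC3* and *RBBP7* rose in both, *MORC3* from 33.8 to 103 CPM for WT and 16.6 to 84.7 CPM for KD without UV. *TRIM28*, the scaffold of the complex, stood at 90.3 and 59.9 CPM for WT and 37.8 and 32.4 CPM for KD without UV and was called lower in KD there (-1.07 ± 0.32, edgeR adjusted p = 0.0371), as were *CHD4*, *HDAC1*, *MTA2* and *RBBP7*. These 5 are 20.8% of the list, beside 6.33% of all genes. With UV *TRIM28* stood at 46.0 and 74.1 CPM for WT and 66.3 and 74.8 CPM for KD, with no call (0.18 ± 0.18). The KD by UV term was called above 0 for 3 of the 24, where 5.04% of all genes were. These were *CHD4*, *HDAC1* and *MTA2*, all part of the NuRD deacetylase complex, at 1.88 ± 0.52, 2.13 ± 0.44 and 1.70 ± 0.44. Other genes of that complex on the list, *CHD3*, *HDAC2*, *MBD3*, *MTA1*, *RBBP4* and *RBBP7*, had values of 0.43 to 1.47 and were not called. *SETDB1* passed in no fit. The median of this term was 1.14 over the 24 genes, 0.60 over the members and 0.11 over all genes tested. Over the 4247 genes above the silent floor it was 0.91, with 14.3% called above 0, and over the 43 members above the floor it was 0.71.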

How the data were processed

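GRO-seq libraries (TruSeq Stranded Total RNA) were sequenced from 8 samples. The authors deposited raw read counts for each transcript, over its whole span with introns and without normalization. Per the labels the reads were aligned to hg38 with BWA 0.5.9 and handled with SAMtools. For the counting tool, its strand setting and its annotation the sources used here give no name. Every gene was represented by its transcript of largest span.

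Genes were filtered with filterByExpr (minimum count 10, minimum total 15), scaled by TMM and fitted with the edgeR 4.0.16 quasi-likelihood test in R 4.3.3 (limma 3.58.1, DESeq2 1.42.0 as alternatives), with Benjamini-Hochberg adjustment over all 17840 genes and a threshold of 0.05. UV, KD and time were additive terms (4 residual degrees of freedom), interactions were added singly (3), and each UV state was also fitted alone (1). CPM in the text have no prior count, and pair ratios are log2 CPM with a prior count of 2. With 1 library a condition no spread within a condition exists. Tested on simulated data for the time effect, the fit recovered 97% of 200 genes changed 4-fold and 100% of those changed 8-fold. False calls numbered 9 and 7. The changed genes were drawn from those above the median level. All genes had the same dispersion (0.128), and no UV or KD change was simulated. These shares therefore do not give the power for members with low counts or for the real libraries.

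The members, lists and tests were chosen with earlier results of these data known. Named genes are those called for a term, otherwise the 3 of smallest p in each direction, the 10 of highest density, and the 5 shortest and 5 longest. Genes named from the fits within a UV state or cell, in clusters and in chromosome 12 promoters were chosen after their values were seen, as was the use of 15 marker genes as a floor. Promoters are RefSeq, GRCh38.p14.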

Additional observations from a re-analysis of the deposited data

Results flagged for a closer look

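The KD over WT ratio differed with UV, by the interaction test, in 9 members, 1.54% of them above 0 and 3.08% below, beside 5.04% and 3.95% of all genes. With any one KD library left out at most 1 member was called, and at most 0.146% of all genes in either direction. The term was 3.12 for *ZNF668*, 1.82 for *ZNF620* and 1.58 for *ZNF142*. It was -2.58 for *ZNF747*, -2.30 for *ZNF688*, -2.26 for *ZNF467*, -2.04 for *ZNF618*, -1.79 for *ZNF775* and -1.71 for *ZNF76*.

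The member medians of KD over WT were -0.21 at 10 min and -0.25 at 40 min without UV, and 0.19 and 0.45 with UV. Those of UV over no UV were -0.20 and -0.38 in WT, and 0.17 and 0.11 in KD. The medians themselves were not tested.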

How the results depend on the processing

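No paired analysis was possible because each condition has 1 library and the labels give no replicate numbers. Precision is limited by the single library a condition and by low counts. The number of members called for time over all libraries (1) was 18 with RLE factors, 0 with library totals, 11 without a filter, 49 with DESeq2, 0 with limma-voom and 12 with the transcript of most reads per kb. In these, 1.96, 0.0112, 0.839, 8.46, 0.0112 and 1.05% of all genes rose, against 0.146% in the main fit. Members called were 71 without UV alone, where 14.2% of all genes rose and 12.5% fell. They were 67 with UV alone (11.6% and 8.27%), and 0 to 48 with 1 library left out (0 to 8.49% of all genes rose). A filter that 1 library can pass gave 21 and another TMM reference 20, both chosen after seeing the data. In these 2.91% and 2.65% of all genes rose. Within libraries without UV fallers (11) were 22 with RLE and 32 with library totals, where 12.5, 18.8 and 34.4% of all genes fell. Within UV libraries DESeq2 called 21 (67), where 4.0% of all genes rose and 1.84% fell.

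Shares of all genes called higher and lower are given in brackets. For UV, KD libraries alone gave 5, against 0 (4.66 and 2.42%). For KD, libraries without UV gave 18 (9.57 and 6.33%) and those with UV 6 (0.891 and 1.57%), against 0. Within the former, RLE gave 35 (18 and 16.6%), library totals 35 (19.9 and 14.3%) and DESeq2 30 (13.8 and 11.8%). Within the latter, totals gave 2 (0.269 and 1.37%), DESeq2 1 (0.297 and 0.549%) and limma-voom 3 (0.605 and 1.22%). For the KD by UV term the main fit gave 9 (5.04 and 3.95%). RLE gave 39 (12.4 and 14.5%), totals 16 (5.16 and 11.2%), DESeq2 37 (13.6 and 14.5%) and limma-voom 14 (6.38 and 6.49%). The 1-library filter gave 40 (13 and 14.6%) and the other reference 40 (15.1 and 13.7%). With 1 library left out the count was 0 to 44 (up to 11.3 and 24.1%). Of the values of this term's named genes, 43 of 144 lost the call. The KD value of *ZNF76* turned to -0.20 in libraries with UV alone. No alternative changed a call for UV by time.

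Member medians with the olfactory receptor gene's density subtracted were 1.04, 0.66 and 1.07 for time in WT without UV, WT with UV and KD with UV. For UV they were -0.47 and -0.84 in WT and 0.52 in KD at 40 min, and for KD -0.66 and -0.79 without UV. With the marker density they were 2.03, 1.09, -0.24 and 1.31 for time (WT and KD without UV, then with UV), -1.78 for UV in WT at 40 min and 1.16 for KD with UV at 40 min. The other reference gave 0.86 for time in WT without UV, -0.72 for UV in WT at 40 min and -0.63 for KD at 40 min without UV. RLE gave 0.75 for the first of these, and library totals 0.031 for time in KD without UV. The cause was not tested.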
